A study of Mus musculus with 10 samples.

Results

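Forkhead transcription factors share a winged-helix DNA-binding domain, and the letters that follow Fox name their classes. FoxO6, the factor added in one arm of this study, belongs to the FoxO class, and 10 forkhead genes of other classes were followed here in the same cells: Foxd1, Foxp1, Foxp4, Foxm1, Foxc1, Foxc2, Foxk1, Foxk2, Foxj3 and Foxn3. They were taken by gene name, and they are 10 of the 50600 genes measured. Many forkhead proteins bind similar core sequences, so factors of different classes can meet at the same sites, and some work mainly as repressors (FoxP, FoxK, FoxN3) and others mainly as activators (FoxM1). Foxd1, Foxc1 and Foxc2 are best known from embryonic mesenchyme, Foxm1 from dividing cells, and Foxk1, Foxk2 and Foxj3 from many tissues.

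The data are bulk RNA-seq of mouse embryonic fibroblasts (MEFs) from E13.5 embryos of the strain CBA/CaJ X C57BL/6J, taken on days 0, 1, 3, 5 and 7 of reprogramming in iCD1 medium. All cells received retroviruses made in PlatE cells for Oct4, Klf4 and Sox2 (OKS), with either FoxO6 (OKS + FoxO6) or the red fluorescent protein DsRed as control (OKS + DsRed, labelled DR). According to the methods the MEFs carried an Oct4-GFP reporter. Each arm gave 1 library per day, 10 in all, so a difference on a single day has no replicate check, and it is not stated whether an arm was followed in 1 infected culture.

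The libraries held between 1208379 and 2225750 expected counts (median 1601151). Foxo6 checks the arms: it had at most 4 reads in a control library (0.61 to 2.29 TPM) and lay between 762 and 1356 TPM in OKS + FoxO6, with 1017 TPM already on day 0. Fibroblast markers, 10 of 10 with a mean TPM of at least 1 in both arms, went in summed level from 10402 to 3043 TPM between day 0 and day 7 in OKS + DsRed and from 9798 to 3311 in OKS + FoxO6. Of 6 epithelial markers, 5 reached that mean in each arm, and their summed TPM ran from 12.1 to 642 in OKS + DsRed and from 3.66 to 138 in OKS + FoxO6. Of 7 pluripotency markers, 6 reached it in OKS + DsRed (summed TPM 0.78 to 275) and 4 in OKS + FoxO6 (0 to 35.9). Other lists were macrophage (1 of 6 in each arm, summed TPM 7.95 to 55.9 in the control and 16.2 to 24.9 with FoxO6), endothelial (3 and 1 of 6, 20.1 to 53.0 and 31.0 to 104) and neural crest (3 of 5 in each, 6.92 to 60.8 and 12.5 to 62.9). The macrophage markers Ptprc, Csf1r and Adgre1 and the endothelial marker Emcn stayed under 1 TPM in all libraries.

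Over the 10 libraries the members covered a wide range of levels. TPM, which is scaled for transcript length and can be compared between genes, averaged 182 for Foxp1, 169.7 for Foxd1, 77.6 for Foxm1, 60.0 for Foxp4 and 57.8 for Foxk2. Lower means were found for Foxj3 (30.3), Foxk1 (20.4), Foxn3 (16.3), Foxc1 (14.6) and Foxc2 (2.28). Neighbours in this order overlapped in their ranges over the libraries, except that the lowest Foxk2 value (45.3) lay above the highest Foxj3 value (40.3), and the lowest Foxc1 value (10.3) above the highest Foxc2 value (8.86). All 10 passed the filter on low counts with which 12212 genes were tested, but Foxc2 had reads almost only early in the course.

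The sum of the 40 forkhead genes outside the FoxO class in the files was carried by these 10, which gave 87.7% to 93.3% of it in OKS + DsRed and 88.2% to 92.5% in OKS + FoxO6. The gene with the highest TPM among them changed during the course. In OKS + DsRed, Foxm1 led on day 0, Foxp1 on day 1 and Foxd1 from day 3 on. In OKS + FoxO6, Foxp1 led on days 0, 1 and 3, Foxp1 and Foxd1 were level on day 5 (246 and 245 TPM), and Foxd1 led on day 7. The Foxd1 share of the forkhead sum went from 5.92% to 42.8% between the first and last day of the control course, and from 3.12% to 36.3% with FoxO6. For Foxp1 it went from 14.6% to 17.3% and from 31.8% to 23.2%, but was highest on day 1 in both arms, at 28.0% and 46.4%.

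**Figure D1:**
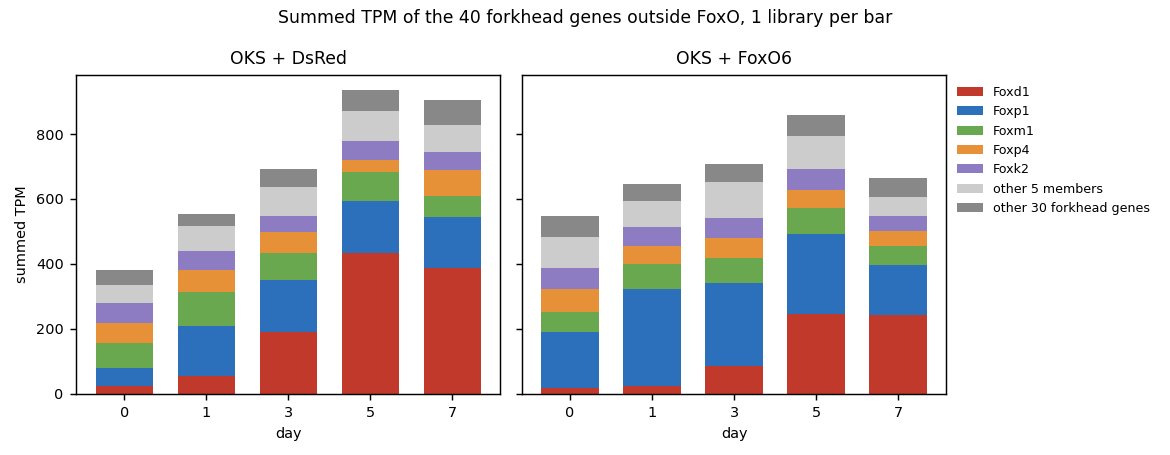
Summed TPM of the 40 forkhead genes outside the FoxO class (vertical axis) by day (horizontal axis) in the OKS + DsRed and OKS + FoxO6 libraries, 1 library per bar, with the 5 members of the highest mean TPM drawn apart. The red segment, Foxd1, grows from 22.6 to 388 TPM between days 0 and 7 in OKS + DsRed and from 17.0 to 241 TPM in OKS + FoxO6.

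The arms were compared over the course in 1 fit across all genes, edgeR's quasi-likelihood test on the expected counts with day as a factor, in which the 5 days stand in for replicates. A p-value from it measures only the spread between these 2 time courses. Over the 5 days, 3 of the 10 members differed between the arms at an adjusted p under 0.05, against 13.5% of all genes tested. Foxp1 was higher in OKS + FoxO6 (6.63% of all genes were called higher), and Foxd1 and Foxc1 were lower (6.89% were called lower). Fold changes of the members were spread evenly around 0, with 5 above and 5 below it and a median log2 fold change of -0.0047, beside -0.020 for all genes.

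Foxd1 (ENSMUSG00000078302), a marker of stromal progenitors in the embryonic kidney and of part of the developing retina, has a single exon (GENCODE M21, GRCm38, chromosome 13, 98354242 to 98359305, plus strand). It is shown with its promoter because its level rose most among the members. The 250 bases before its start (RefSeq, GRCm38.p6, chr13:98353995-98354244, plus strand) hold 1 match to the Klf-type letters CCACCC, on the other strand, and 1 CCAAT box, both in capitals.
Foxd1 promoter: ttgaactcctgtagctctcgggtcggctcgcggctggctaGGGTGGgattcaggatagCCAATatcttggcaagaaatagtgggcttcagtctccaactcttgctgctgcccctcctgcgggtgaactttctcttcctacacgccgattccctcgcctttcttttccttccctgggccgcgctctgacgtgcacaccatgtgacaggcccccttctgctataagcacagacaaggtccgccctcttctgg
The matches begin 210 and 192 bases before the start.

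In OKS + DsRed, Foxd1 started from 22.6 TPM and reached 52.8, 189, 434 and 388 TPM on days 1, 3, 5 and 7. In OKS + FoxO6 it started from 17.0 TPM and reached 24.3, 83.4, 245 and 241 TPM. Both courses thus climbed until day 5 and in TPM went no higher on day 7, although CPM in OKS + FoxO6 was 1.17-fold (95% counting interval 1.04 to 1.32) that of day 5, and the OKS + FoxO6 library was the lower one on all 5 days, as it was in CPM for 11.0% of the genes tested. The rise rested on 35 reads on day 0 against 905 on day 7 in the control arm, and on 45 against 519 in the other.

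Counts scaled to the library total (CPM, with TMM normalization and no scaling for length) gave a day 7 to day 0 ratio of 15.8 (95% interval 11.2 to 22.8) for Foxd1 in OKS + DsRed and 15.9 (11.7 to 22.0) in OKS + FoxO6. These intervals and those that follow are exact and cover counting error only. Of the steps between neighbouring time points, days 1 to 3 had the largest ratio of CPM in both arms, 3.52 (2.80 to 4.47) in OKS + DsRed and 3.38 (2.46 to 4.74) in OKS + FoxO6. The first step spans 1 day and the later ones 2 days, and the ratios are not scaled for this. Days 0 to 1 gave 2.07 and 1.38, and days 3 to 5 gave 2.31 and 2.90 (2.46 to 3.43), in the same order of arms. In the fit over both arms the log2 fold change of day 7 against day 0 was 3.98 (SE 0.24, edgeR adjusted p = 3.70e-06). It had reached 2.54 by day 3 (edgeR adjusted p = 0.000108), when 15.3% of all genes were called against day 0.

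Between the arms, Foxd1 was lower in OKS + FoxO6 by a log2 fold change of -0.86 in the fit of the shift (SE 0.14, edgeR adjusted p = 0.00270). By day, CPM in the control exceeded that in OKS + FoxO6 1.46-fold, 2.20-fold, 2.29-fold, 1.83-fold and 1.45-fold, in the order of the days. The interval of the ratio held 1 only on day 0, from 0.913 to 2.33. A linear trend of this difference with day was not called, which does not show that there was none (log2 change per day 0.050, SE 0.050, edgeR adjusted p = 0.639). Epithelial and pluripotency markers, given above, were also higher in sum on day 7 than on day 0 and lower in OKS + FoxO6 than in the control at day 7, and their part in the Foxd1 values was not tested. In bulk RNA, fewer cells that express a gene and less RNA per cell cannot be told apart.

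**Figure D2:**
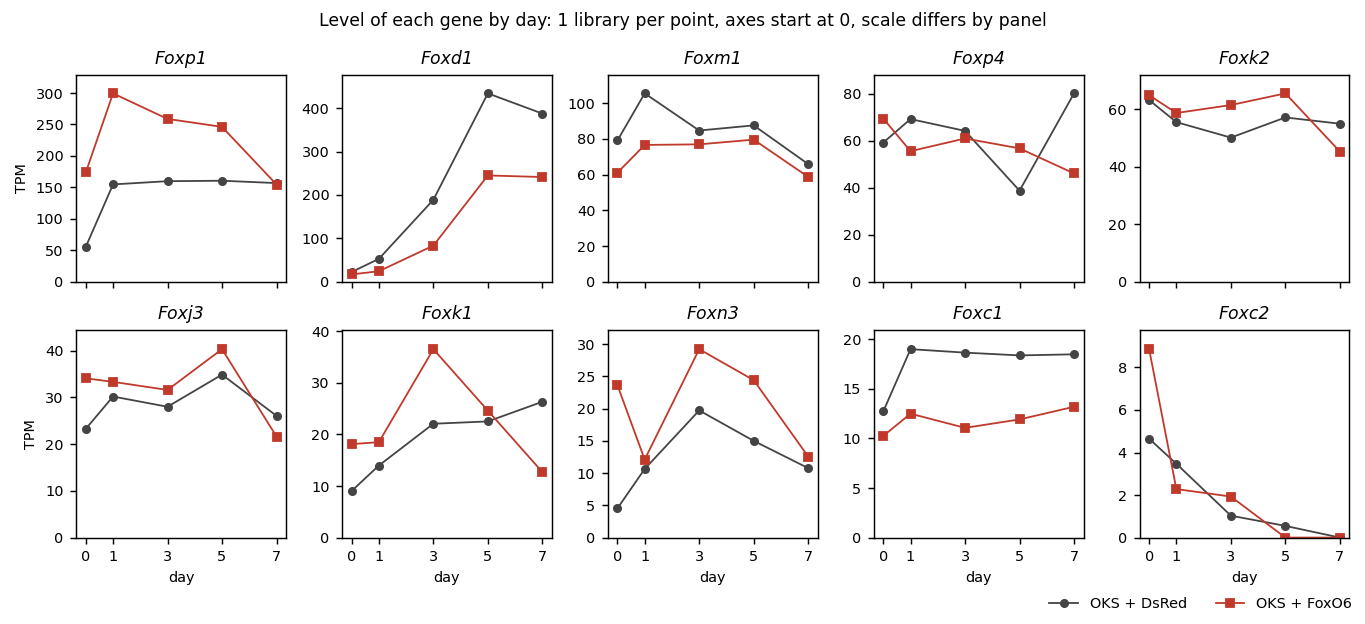
TPM of each of the 10 members (vertical axes, each from 0 with its own scale) by day (horizontal axis) in OKS + DsRed (black circles) and OKS + FoxO6 (red squares), 1 library per point. Foxd1 climbs in both arms and is lower in OKS + FoxO6 on all 5 days, Foxp1 is higher in OKS + FoxO6 until day 5, and Foxc2 falls to 0 in both arms by day 7.

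Foxp1 (ENSMUSG00000030067), a repressor that pairs with other FoxP proteins and is made in many isoforms, lies on the minus strand of chromosome 6 from 98925338 to 99522721, with 31 annotated transcripts. Values per gene do not separate its isoforms. RefSeq gave it 3 starts, and the windows before 2 of them are printed to show how unlike they are (GRCm38.p6, minus strand, read 5′ to 3′ on that strand). The inner one, chr6:99028299-99028548, has 74.0% G and C and holds, in capitals, 1 match each to the Sox, CCAAT and Klf letters spelled out further on, the last 2 on the other strand. The middle one, chr6:99266516-99266765, has 45.2% G and C and holds none of the motifs searched.
Foxp1 inner start: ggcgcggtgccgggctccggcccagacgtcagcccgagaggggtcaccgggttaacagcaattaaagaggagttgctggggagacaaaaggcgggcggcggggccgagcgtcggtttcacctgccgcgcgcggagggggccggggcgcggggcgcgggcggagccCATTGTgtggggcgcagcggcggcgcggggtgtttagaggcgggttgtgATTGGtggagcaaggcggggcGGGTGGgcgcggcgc
Foxp1 middle start: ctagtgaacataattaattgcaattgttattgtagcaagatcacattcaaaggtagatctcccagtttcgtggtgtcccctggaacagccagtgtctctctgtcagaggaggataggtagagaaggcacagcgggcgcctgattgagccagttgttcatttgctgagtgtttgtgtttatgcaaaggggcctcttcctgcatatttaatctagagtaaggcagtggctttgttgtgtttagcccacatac
The Sox, CCAAT and Klf matches of the inner window begin 85, 36 and 15 bases before the start.

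In OKS + DsRed, Foxp1 started from 55.6 TPM and then held 154.8, 159.9, 160.6 and 156.9 TPM on days 1, 3, 5 and 7. In OKS + FoxO6 it was at 173.8, 299, 259, 246 and 154.6 TPM. The control was thus low on day 0 alone and even afterwards, while OKS + FoxO6 was above that later level already on day 0, highest on day 1 and near the control on day 7. The CPM ratio of day 1 to day 0 was 2.30 (1.84 to 2.89) in OKS + DsRed and 1.61 (1.44 to 1.80) in OKS + FoxO6, and in the fit over both arms this step was not called (log2 fold change 0.89, SE 0.23, edgeR adjusted p = 0.0612).

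Over the 5 days Foxp1 was higher in OKS + FoxO6 with a log2 fold change of 0.83 (SE 0.15, edgeR adjusted p = 0.00462). The ratio of its CPM in OKS + FoxO6 to that in OKS + DsRed went from 2.76 (2.24 to 3.43) on day 0 through 1.93, 1.62 and 1.51 to 1.41 (1.24 to 1.61) on day 7. All 5 intervals lay above 1, the ratio was lower on each later day, and 12.2% of the genes tested had a higher CPM in OKS + FoxO6 on all 5 days. Its trend with day, a log2 change per day of -0.12 (SE 0.040), was not called (edgeR adjusted p = 0.157). With no day term in the fit, the calls of the shift were lost for Foxp1 (edgeR adjusted p = 0.143) and Foxd1 (0.735), while the log2 fold changes were 0.77 and -0.80.

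At day 7 the scales parted for Foxp1, with CPM 1.41-fold higher in OKS + FoxO6 and TPM nearly equal. The effective length that RSEM assigned to the gene was 3577 bases in that library and 2751 to 2981 in the OKS + DsRed libraries. The call of the shift was kept with effective length as an offset. Day 7 against day 0 gave a log2 fold change of 0.73 (SE 0.23, edgeR adjusted p = 0.0460), a call that was lost with RLE size factors (0.0507), with effective length as an offset (0.147), in a fit of days 0 and 7 alone (0.173) and without day 1 (0.0736), day 3 (0.0752) or day 5 (0.0645), while over all 8 alternatives the fold stayed between 0.64 and 0.76.

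Foxp4 (ENSMUSG00000023991, chromosome 17, 47867133 to 47924645, minus strand), a FoxP repressor that can pair with Foxp1, was called in no test. It was at 59.2, 69.2, 64.2, 38.8 and 80.2 TPM over the days in OKS + DsRed and at 69.5, 55.6, 61.0, 56.8 and 46.1 in OKS + FoxO6. The control was lowest on day 5 and OKS + FoxO6 on day 7, and the shift was not called (log2 fold change -0.13, SE 0.15, edgeR adjusted p = 0.637). Within a library, the TPM ratio of Foxp1 to Foxp4 was higher in OKS + FoxO6 on all 5 days. That ratio was 0.939, 2.24, 2.49, 4.14 and 1.96 in OKS + DsRed and 2.50, 5.39, 4.24, 4.34 and 3.35 in OKS + FoxO6.

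Foxc1 (ENSMUSG00000050295), a regulator of mesenchyme in the eye, skeleton and vessels, has a single exon on chromosome 13 from 31806633 to 31812476 on the plus strand. Its promoter is printed as that of the other member lower in OKS + FoxO6. The window chr13:31806396-31806645 (RefSeq, GRCm38.p6, plus strand) has 70.8% G and C and 29 CpG sites, and holds a CCAAT box on the other strand, in capitals, that begins 101 bases before the start.
Foxc1 promoter: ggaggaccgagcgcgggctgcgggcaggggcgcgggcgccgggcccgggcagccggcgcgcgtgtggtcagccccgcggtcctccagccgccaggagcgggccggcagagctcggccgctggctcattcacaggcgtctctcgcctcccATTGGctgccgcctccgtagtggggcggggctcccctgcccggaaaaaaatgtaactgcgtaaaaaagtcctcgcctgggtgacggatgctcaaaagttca
The CCAAT letters thus stood in the windows of Foxd1, Foxc1 and the inner start of Foxp1, and also in that of Foxk2, beside 33.8% of all windows of that length.

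Foxc1 was at 12.7, 19.0, 18.7, 18.4 and 18.5 TPM on days 0, 1, 3, 5 and 7 in OKS + DsRed and at 10.3, 12.5, 11.1, 11.9 and 13.2 in OKS + FoxO6. The OKS + FoxO6 library was the lower one on all 5 days, but the ranges of the arms overlapped through the day 0 control. Each value rested on 32 to 70 reads, and the interval of the CPM ratio lay below 1 on 3 of the 5 days. The shift of Foxc1 was a log2 fold change of -0.57 (SE 0.17, edgeR adjusted p = 0.0432). This call stood close to the threshold and was lost without day 0 (0.0615), day 1 (0.114), day 3 (0.155) or day 5 (0.152), with effective length as an offset (0.0821), with no filter (0.0966), with no day term (0.113) and with DESeq2 (0.197), while the fold stayed between -0.63 and -0.53.

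**Figure D3:**
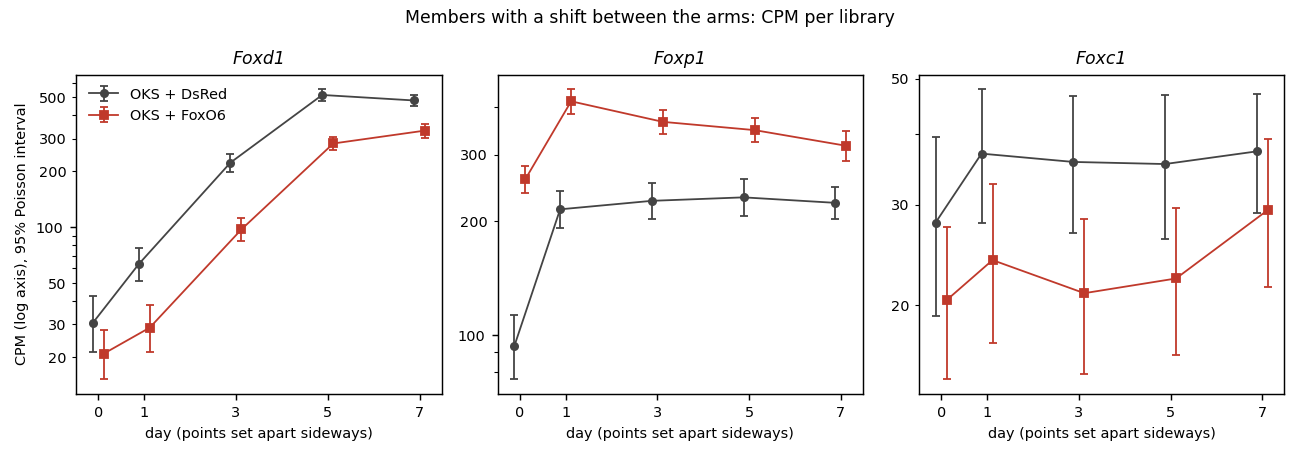
CPM (vertical log axes) by day (horizontal axis) of the 3 members called between the arms, in OKS + DsRed (black circles) and OKS + FoxO6 (red squares), with 95% Poisson intervals that cover counting error of 1 library each. Foxd1 is lower and Foxp1 higher in OKS + FoxO6 on all 5 days, and for Foxc1 the intervals of the arms overlap on each day.

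Foxc2 (ENSMUSG00000046714, chromosome 8, 121116171 to 121118895, plus strand), the close relative of Foxc1 and also a mesenchymal and vascular regulator, fell over the course. In OKS + DsRed it had 8, 7, 2, 1 and 0 reads on days 0, 1, 3, 5 and 7 (4.65, 3.47, 1.03, 0.55 and 0 TPM), and in OKS + FoxO6 it had 26, 5, 5, 0 and 0 reads (8.86, 2.28, 1.93, 0 and 0 TPM). With day 7 set at a floor of 3 reads, its CPM was 4.37-fold lower than at day 0 in OKS + DsRed. In OKS + FoxO6 it was 6.29-fold lower. Both folds take the day 0 reads as exact and are no lower bounds. Exact counting intervals of the day 7 to day 0 CPM ratio reached up to 0.357 in OKS + DsRed and 0.210 in OKS + FoxO6. The change over the days passed the test (edgeR adjusted p = 0.0226), as did day 7 against day 0 (edgeR adjusted p = 0.00813). Foxc2 entered the fits through its day 0 reads, so these calls are a description, without day 0 it was not tested, and with no arm term the change over the days was lost (edgeR adjusted p = 0.0698). The fitted fold of a gene at 0 is no bound, and no fold from the fit is given. Another annotated gene on the same strand, Gm20388, overlaps Foxc2 and held up to 161 reads in a library, so the reads assigned to Foxc2 are uncertain.

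Between days, Foxd1 was called higher on day 7 than on day 0, beside 21.8% of all genes called and 11.7% called higher. Foxp1 was called higher too, but lost the call in 6 of 8 alternatives, and its CPM ratio was 2.39 (1.93 to 2.99) in OKS + DsRed and 1.23 (1.08 to 1.39) in OKS + FoxO6, where TPM was lower on day 7. Foxc2 was called lower (10.1% of all genes were) but is not counted with them, since it had passed the filter through its day 0 reads. Over all the days together Foxd1 passed, beside 20.0% of all genes, with Foxc2 under the same limit. Among 13 mesenchymal transcription factors tested of 17 listed, which with Foxc1 and Foxc2 belong to the embryonic mesenchyme, 9 were called lower on day 7 than on day 0 and none higher. Prrx2 and Osr1, 2 of the 9 and named after their values were seen, passed the filter only with the day 0 libraries. Of the 11 others, 7 were called lower, with a median log2 fold change over the 11 of -1.26 beside 0.030 for all genes. Twist1, a helix-loop-helix factor of mesenchyme, fell by 1.79 on the log2 scale and Prrx1, a homeobox factor of limb and face mesenchyme, fell by 1.26 (edgeR adjusted p = 0.000481 and 0.000999). Foxc1 was not among those that fell, with a log2 fold change of 0.46 (SE 0.26, edgeR adjusted p = 0.247). Between the arms, 3 of the 13 were called, beside 13.5% of all genes: Twist1 (log2 fold change 1.00, edgeR adjusted p = 0.00237) and Zeb1 (0.67, 0.0110, named after its value was seen) were higher and Prrx1 (-0.78, 0.00249) lower in OKS + FoxO6. The number called was 0 with no day term, 5 without day 7 and 2 to 4 in the other alternatives, with 2 called without day 3 and 2 without day 5.

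**Figure D4:**
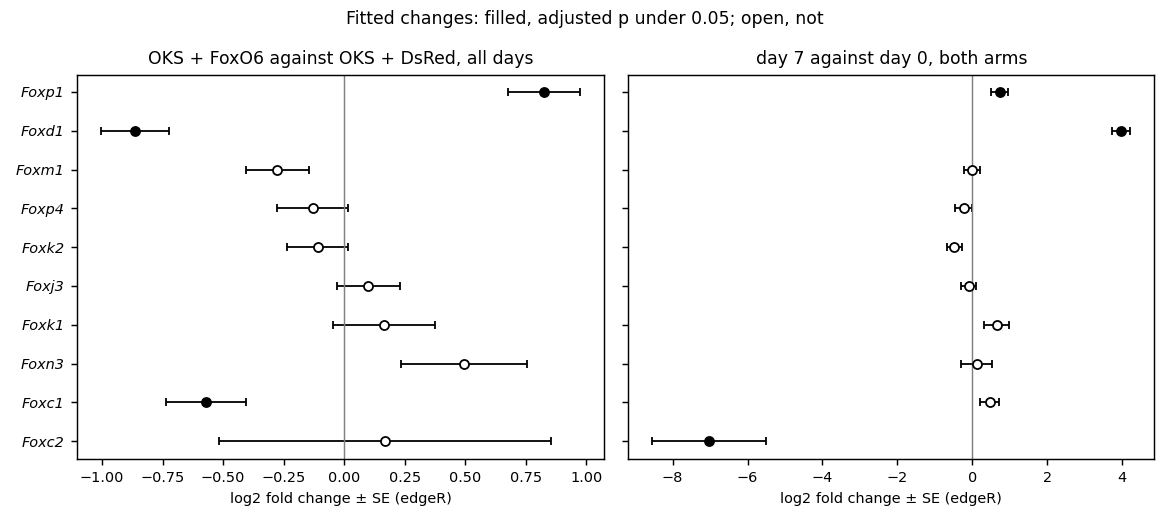
Log2 fold changes with their standard errors from edgeR (horizontal axes) for the 10 members (vertical axis, by mean TPM), on the left OKS + FoxO6 against OKS + DsRed over the 5 days and on the right day 7 against day 0 over both arms. Filled points have an adjusted p under 0.05: Foxp1, Foxd1 and Foxc1 on the left, Foxp1, Foxd1 and Foxc2 on the right, where the place of Foxc2 is no bound on its fold since both day 7 libraries hold 0 reads.

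Foxm1 (ENSMUSG00000001517, chromosome 6, 128362967 to 128376146, plus strand) activates genes of G2 phase and mitosis together with the MuvB complex. It was at 79.2, 105.5, 84.7, 87.6 and 65.9 TPM in OKS + DsRed and at 61.1, 76.7, 77.0, 79.6 and 58.8 TPM in OKS + FoxO6, lower on all 5 days. On the CPM scale it was lower on 4 days and 1.12-fold higher (0.930 to 1.34) at day 7. The shift was not called (log2 fold change -0.28, SE 0.13, edgeR adjusted p = 0.204), though without day 7 it was (-0.38, edgeR adjusted p = 0.0494). The change over the days was not called (edgeR adjusted p = 0.451).

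Of 15 known FoxM1 target genes of G2 and mitosis, 9 were lower in OKS + FoxO6 over the 5 days and none higher, beside 6.89% of all genes called lower. All 15 fold changes were negative, with a median log2 fold change of -0.60. Of the highest expressed, Top2a (topoisomerase of chromosome separation) gave -0.67, Cks2 (a cyclin-dependent kinase subunit) -0.63, Cenpa (the centromere histone) -0.61 and Cdc20 (activator of the anaphase-promoting complex) -0.87. The edgeR adjusted p values were 0.0123, 0.0200, 0.0384 and 0.00564. All 15 stayed negative in the 10 alternatives, and the number called lower was 0 with no day term, 5 with an offset of effective length, 3 without day 5 and 7 to 11 in the others. From day 0 to day 7 only Cenpf, a kinetochore protein named after its value was seen, was called (log2 fold change 0.89, edgeR adjusted p = 0.0301), and 0 genes of the list were called without day 3, on days 0 and 7 alone, with the length offset or with DESeq2. Of the 6 MuvB partners, Mybl2 was lower in OKS + FoxO6 (-0.77, edgeR adjusted p = 0.0436) and the others were not called, among them Rbbp4 (0.096), Lin37 (0.11) and Lin54 (-0.19). In 6 of the 10 alternatives 0 partners were called, among them leaving out day 0, 3, 5 or 7.

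Foxk1 (ENSMUSG00000056493, chromosome 5, 142401497 to 142462011, plus strand), a repressor that binds SIN3 and is known from muscle progenitors, had its lowest value on day 0 in one arm and on day 7 in the other. In OKS + DsRed it was at 9.03, 14.0, 22.1, 22.5 and 26.3 TPM over the days, highest at day 7. In OKS + FoxO6 it was at 18.1, 18.5, 36.5, 24.6 and 12.7 TPM, highest at day 3. The ratio of CPM in OKS + FoxO6 to OKS + DsRed was 1.66 (1.17 to 2.39) on day 0 and 0.533 (0.408 to 0.693) on day 7. The linear trend of the difference was a log2 change of -0.19 per day (SE 0.057) and was not called (edgeR adjusted p = 0.119). It was called with no filter (-0.19, edgeR adjusted p = 0.0284) and without day 5 (-0.23, edgeR adjusted p = 0.0465), and without day 7 it was -0.062 (edgeR adjusted p = 0.855). Effective length of Foxk1 varied between 4912 and 7379 bases over the libraries and was lowest on day 3 of OKS + FoxO6, where its TPM was highest. In CPM, OKS + FoxO6 was at 87.5 on day 3 and 87.2 on day 5.

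No member was called for the trend of the arm difference with day in edgeR or DESeq2, beside 1.60% of all genes in edgeR. DESeq2 gave an adjusted p for 7 of the 10. At an unadjusted p under 0.05 there were 2 members in each tool, Foxp1 and Foxk1, beside 18.0% of all genes in edgeR and 8.64% in DESeq2. A trend that was not called is not shown to be absent. Of 200 changes put into simulated data at each size, this test recovered 1 at 2-fold and 80 at 4-fold.

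Foxk2 (ENSMUSG00000039275, chromosome 11, 121259990 to 121309896, plus strand), the relative of Foxk1 that recruits the BAP1 complex, had a highest TPM 1.45-fold the lowest over the 10 libraries, and its CPM ran from 99.7 to 177. It was at 63.3, 55.6, 50.2, 57.2 and 55.0 TPM in OKS + DsRed and at 65.0, 58.8, 61.5, 65.6 and 45.3 in OKS + FoxO6. No test of it passed (shift log2 fold change -0.11, SE 0.13, edgeR adjusted p = 0.644, day 7 against day 0 -0.48, edgeR adjusted p = 0.112). The TPM ratio of Foxk1 to Foxk2 went from 0.143 on day 0 to 0.478 on day 7 in OKS + DsRed. In OKS + FoxO6 it was 0.279, 0.594 and 0.280 on days 0, 3 and 7. In CPM, which is not scaled for length, Foxk1 was at 62.2, 87.5 and 53.7 on those days of OKS + FoxO6. Foxk2 was at 160, 124 and 99.7. Effective length in that arm was 4912 bases for Foxk1 on day 3 and 3843 for Foxk2 on day 7.

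Of 11 partners of the FoxK proteins, 1 was called between the arms and 2 for day 7 against day 0, and of 10 members of the NuRD complex, with which FoxP proteins repress, also 1 and 2. Over all genes these shares were 13.5% and 21.8%, so neither list stood above them. Among the FoxK partners Ogt, the enzyme of O-GlcNAc transfer, was higher in OKS + FoxO6 (log2 fold change 0.51, edgeR adjusted p = 0.0367) and rose by day 7 (1.54, edgeR adjusted p = 0.000714). Sin3a, a SIN3 scaffold named after its value was seen, also rose by day 7 (0.77, edgeR adjusted p = 0.0497). Other highly expressed partners, Sin3b, Hcfc1 and Suds3, were not called in either comparison. In the NuRD complex the deacetylase Hdac1 was lower in OKS + FoxO6 (-0.44, edgeR adjusted p = 0.0364) and rose by day 7 (0.69, edgeR adjusted p = 0.0238). Mta3, named after its value was seen, rose by day 7 as well (0.89, edgeR adjusted p = 0.0340), while Rbbp7, Mbd3 and Hdac2 were not called. Between the arms, 0 FoxK partners were called in 6 and 0 NuRD members in 7 of the 10 alternatives, leaving out day 0, 1, 3 or 5 among them in both lists. For day 7 against day 0, 0 NuRD members were called on days 0 and 7 alone or with DESeq2 and 1 without day 3, and 1 FoxK partner was called in 7 of the 8 alternatives.

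Foxj3 (ENSMUSG00000032998, chromosome 4, 119537004 to 119629119, plus strand), an activator known from muscle and sperm development, stayed between 21.6 and 40.3 TPM in all libraries, with the highest value at day 5 in both arms. None of its tests passed (shift log2 fold change 0.10, SE 0.13, edgeR adjusted p = 0.684). Foxn3 (ENSMUSG00000033713, chromosome 12, 99190078 to 99563582, minus strand), a repressor linked to cell-cycle checkpoints, was at 4.54, 10.7, 19.7, 15.0 and 10.8 TPM in OKS + DsRed and at 23.6, 12.1, 29.2, 24.4 and 12.6 in OKS + FoxO6. OKS + FoxO6 had the higher TPM on all 5 days, most of all on day 0, from 46 reads against 7 (CPM ratio 3.49, 1.57 to 9.17). On the CPM scale it was higher on 4 days and lower on day 7 (ratio 0.911, 0.499 to 1.64). Effective length of Foxn3, which enters TPM, varied between 1719 and 2821 bases over the libraries. The shift of Foxn3 was not called (log2 fold change 0.49, SE 0.26, edgeR adjusted p = 0.250).

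Day by day, differences between the arms were taken on the log2(TPM + 1) scale, which understates the change of low genes, and a difference over 2-fold was counted with no test. Of the 50 pairs of a member and a day, 4 exceeded it. Foxp1 (1.63) and Foxn3 (2.15) were higher in OKS + FoxO6 on day 0, and Foxd1 was lower on day 1 (-1.09) and day 3 (-1.17). Among the 15011 genes whose TPM averaged 1 or more, the shares that exceeded it were 17.0%, 17.5%, 20.0%, 21.7% and 24.8%, in the order of the days. On days 5 and 7 no member did, the nearest being Foxk1 on day 7 (-0.995). With a pseudocount of 0.1 in place of 1, Foxk1 on day 7 (-1.04) and Foxc2 on day 5 (-2.70, from 1 read in the control and 0 in OKS + FoxO6) passed it too.

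**Figure D5:**
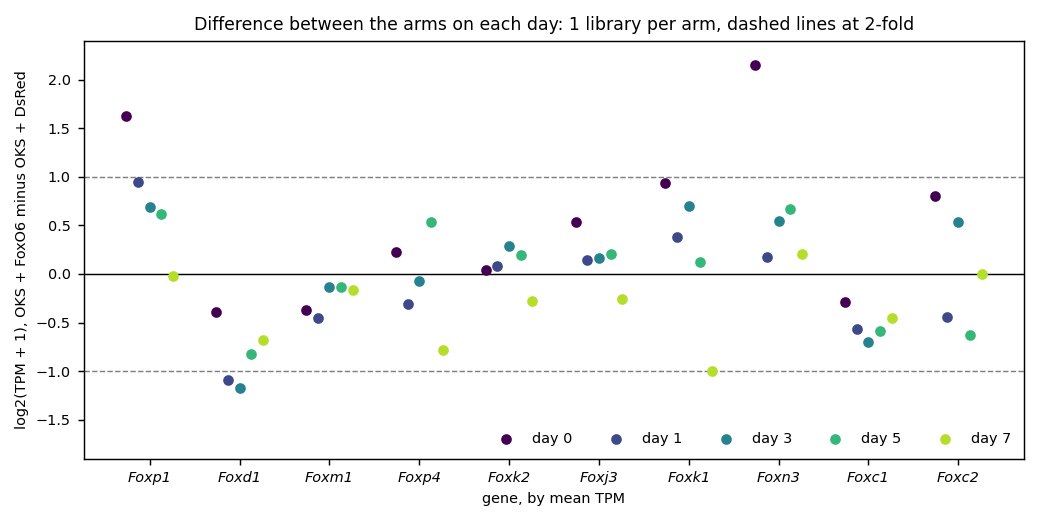
Difference between OKS + FoxO6 and OKS + DsRed in log2(TPM + 1) (vertical axis) for each member (horizontal axis, by mean TPM) and day (colours), 1 library per arm, with dashed lines at 2-fold. Points past a line are Foxp1 and Foxn3 at day 0 (1.63 and 2.15) and Foxd1 at days 1 and 3 (-1.09 and -1.17).

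Across the 10 libraries the members did not follow 1 course. Of 45 pairs, 10 had a Pearson correlation of log2 CPM above 0.5 and 4 had one below -0.5. The highest was between Foxp1 and Foxn3 (0.77) and the lowest between Foxd1 and Foxc2 (-0.92). These are descriptions over libraries that share their days and totals. Those of Foxc2, here and below, rest on few reads, since it passed the filter through its day 0 reads and had 0 reads on day 7. The genes most like Foxd1 over the 10 libraries among the 12212 tested were Mapt (0.99), Tdh (0.99) and Nfasc (0.99). Foxp1 was most like Ankrd39 (0.96), Dennd1a (0.95) and Mxi1 (0.94), and Foxm1 most like Scml2 (0.96), Kif2c (0.95) and Melk (0.93). For Foxc1 they were Nxn (0.95), Cd9 (0.94) and Nefl (0.93), for Foxc2 Icmt (0.98), Smad7 (0.97) and Plagl1 (0.97), and for Foxk1 Rev3l (0.96), Klhdc10 (0.96) and Vps54 (0.94). The remaining members were most like Cxxc5 (Foxp4, 0.89), Cacna1g (Foxk2, 0.94), Zfp652 (Foxj3, 0.95) and AW549877 (Foxn3, 0.96).

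Promoters were matched in RefSeq for 7 of the 10 members, with 9 starts in all, while Foxm1, Foxk1 and Foxc2 had none in the table. Their 250 bases had a median of 69.6% G and C and 27 CpG sites, beside 52.4% and 6 over the 32851 promoter windows of that length. Both strands were searched for 5 sets of letters, none of which is part of another. The forkhead letters were GTAAACA, and the octamer bound by Oct4 was ATGCAAAT. The letters CATTGT stood for Sox factors, CCACCC stood for Klf factors, and CCAAT was the CCAAT box. No forkhead or octamer letters were found in the 9 windows, which says only that these letters are not in these 250 bases, and 3.17% and 1.60% of all windows held them. Sox letters were in 10.7% of all windows, Klf letters in 28.1% and CCAAT in 33.8%.

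The 30 other forkhead genes outside the FoxO class had mostly few reads or none. Of these, 10 had 0 reads in every library, where 3 reads is the limit that a count of 0 allows, 26 had at most 12 reads in any library, and 9 averaged 1 TPM or more. Foxj2 (24.8), a relative of Foxj3, and Foxn2 (13.8), a relative of Foxn3, were the only ones with a mean above 10 TPM. Foxp2 (3.60), Foxj1 (2.26), Foxf1 (2.10), Foxf2 (1.94), Foxd3 (1.61), Foxn4 (1.18) and Foxa2 (1.03) followed. Foxj2, Foxn2, Foxp2 and Foxj1 passed the filter, and with that filter none was called in any of the 4 tests by edgeR or DESeq2. With no filter, edgeR called Foxp2 lower on day 7 than on day 0 (log2 fold change -1.88, edgeR adjusted p = 0.0437) and Foxj1 for the change over days (edgeR adjusted p = 0.00270). At an unadjusted p under 0.05 in edgeR, Foxp2 passed for the shift and for day 7 against day 0 and Foxn2 for the trend. Foxj1 passed all but the trend, but it entered the fits through its reads on days 5 and 7 of OKS + DsRed and was not tested without either day, so its values are a description. Over all genes, 27.7%, 33.9%, 33.2% and 18.0% passed at that level for the shift, day 7 against day 0, the change over days and the trend. On day 7 Foxj1, the regulator of motile cilia, had 31 reads in the control library and 5 in the other.

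Foxc1 and Foxc2 each lie beside other forkhead genes. Foxf2 is 175 kb and Foxq1 246 kb from Foxc1, and Foxl1 is 9.04 kb and Foxf1 28.0 kb from Foxc2. Foxf2 had 10 reads or fewer in each library and Foxf1 12 or fewer. Foxq1 had 0 reads on days 0 and 1 in both arms and was highest on day 7, with 5 reads in OKS + DsRed and 7 in OKS + FoxO6. Foxl1 had 0 reads in all libraries.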

How the data were processed

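Bulk RNA-seq of 10 libraries was used, 1 per arm and day, grouped by their labels. The authors used RSEM with Bowtie2 on the GENCODE M13 transcriptome and deposited estimated counts (RSEM expected counts, not normalized) and TPM per gene, with effective lengths. The methods name a TruSeq kit and the labels a VAHTS kit, and how strand was treated is not given in the sources used here. The series table repeats the expected counts of 48476 of the 50600 genes. Counts were rounded and tested with edgeR 4.0.16 in R 4.3.3 (TMM, filterByExpr, quasi-likelihood test, Benjamini-Hochberg adjusted p over 12212 genes, threshold 0.05), with day as a factor and arm. The trend test added arm times day. Intervals of 95% and the floor of 3 counts per library were computed with scipy 1.17.1. Depth was 1208379 to 2225750 counts per library.

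The fits were tested on simulated data with 200 known changes at each size. The trend test recovered 1 at 2-fold and 80 at 4-fold, and day 7 against day 0 recovered 44 and 181. Changes not called there are thus not shown to be absent. The genes named are the members, other forkhead genes averaging 1 TPM or more, up to 4 genes per list by mean TPM, and the 3 genes most correlated with each member. Also named are Foxo6, cell type markers that stayed low, the gene overlapping Foxc2, and the forkhead genes beside Foxc1 and Foxc2. The members and the lists were chosen with earlier results of these data known, and the genes named outside this rule are marked. Alternatives were RLE size factors, no filter, DESeq2 1.42.0, other terms for day and arm, days left out, and for single days a pseudocount of 0.1, log2 CPM and other filters. An offset of effective length was chosen after seeing the data. Coordinates are from GENCODE M21.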

Additional observations from a re-analysis of the deposited data

How the results depend on the processing

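At 1208379 to 2225750 counts per library, genes with few reads such as Foxc2 and Foxn3 were measured loosely. The fits with day as a factor compare the arms within each day, and the fit with no day term drops this pairing. Over the 5 days, the calls of Foxd1 and Foxp1 were kept in 9 of 10 alternatives and lost only with no day term, where 0 members and 169 of all genes were called, down from 1651 (edgeR adjusted p = 0.735 for Foxd1 and 0.143 for Foxp1, log2 fold changes -0.80 and 0.77 against -0.86 and 0.83); the cause was not tested. Leaving out a day gave 705 to 1640 genes, the fewest without day 5 (705) and day 3 (773). For the change over days, all genes called numbered 2448, 671 with no arm term and 3804 with no filter, and 1113 to 2737 without a day, fewest without day 0. Members called there numbered 2, 1 with no arm term, where Foxc2 was lost (edgeR adjusted p = 0.0698), and 1 to 3 without a day: Foxc2 was not tested without day 0, and Foxp1 was added without day 7 (0.0235). Foxp1 was also called for the change over days with DESeq2 (0.0467) and with no filter (0.00519). The trend test called 196 genes, 648 with no filter, 92 with log2(day + 1), 114 with the length offset, 0 with day as a number (1035 at an unadjusted p under 0.05) and 91 to 289 without a day, fewest without day 7 (91) and day 0 (121). Members called there numbered 1 (Foxk1) with no filter and 0 to 1 without a day. Day 7 against day 0 called 2668 genes, 1912 to 3107 in the alternatives, and Foxd1 in all 8. Foxc2 was called in all 8 too, but each kept the day 0 reads through which it passed the filter, so this is a description. Pairs of a member and a day past 2-fold numbered 4, and 6 with a pseudocount of 0.1, which added Foxk1 on day 7 and Foxc2 on day 5. With log2 CPM in place of log2(TPM + 1), 6 of the 50 pairs changed sign, all under 2-fold: Foxp1 (0.50), Foxm1 (0.16) and Foxn3 (-0.13) on day 7, Foxk2 on days 0 (-0.15) and 1 (-0.017) and Foxj3 on day 3 (-0.049). Fold changes of the 4 tests that changed sign were all uncalled: the Foxc2 shift with DESeq2 (-0.0065) and among the days left out (-0.0046 without day 3, up to 0.51), the Foxk2 shift with the length offset (0.059), Foxn3 at day 7 with that offset (-0.10), and, without day 7, the trends of Foxd1 (-0.012, up to 0.12 without day 0), Foxp4 (0.061, down to -0.079 without day 5), Foxc1 (-0.042, up to 0.050 without day 0) and Foxk2 (0.045, down to -0.066 without day 0).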
